A study of Mus musculus with 33 samples.

Results

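Myotonic dystrophy type 1 is caused by an expanded CTG repeat at the end of the gene Dmpk. The 48 splicing events described here were those listed for myotubes with 2 expanded copies of the gene and also for myotubes with 1, so that the 2 doses of the expansion can be set against each other exon by exon. An event was taken when the authors' table for Dmpk 480/480 myotubes and their table for Dmpk +/480 myotubes held it under the same gene ID, with identical coordinates for every exon, flanking exons included. This gave 48 of the 243 events in the 480/480 table and of the 110 in the +/480 table, out of 549 events in all tables of the series, and the 48 lay in 35 genes. The comparison asks how far the splicing change depends on whether 2 alleles or 1 carry the repeat.

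The study sequenced RNA of mice with CTG expansions knocked into Dmpk, in muscle, cultured myotubes and choroid plexus. Groups used here were homozygous 480/480 myotubes, in which both alleles are the Dmpk 480 allele with 480 CTG repeats, heterozygous +/480 myotubes, with 1 such allele and 1 wild-type allele, and wild-type Dmpk+/+ myotubes. All 3 groups were of the FVB strain, with 3 libraries each, and each library came from myotubes derived from a different mouse. Total RNA was depleted of ribosomal RNA and made into directional paired-end libraries. The labels used here give no age of the mice and no stage of the cultures, and they state the length of the repeat by the name of the allele alone. The tables hold splicing events and no gene levels, so neither the genotype nor the labelled cell type was checked here against expression, although exons of troponin T, a skeletal muscle calcium channel and a Z-disc protein were among the events.

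Myotubes are multinucleate muscle cells formed by fusion of myoblasts in culture. RNA from the expanded Dmpk allele folds into CUG-repeat hairpins that collect in nuclear foci and bind muscleblind-like (MBNL) proteins. MBNL proteins promote the adult pattern of alternative splicing in muscle, and when they are sequestered many transcripts return to exons used in the fetus, while CELF1, a splicing regulator with opposite effects on several of the same exons, is raised in the disease. These facts are background from the disease and its models, and MBNL and CELF1 activity were not measured in the values used here.

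Inclusion gives, in percent, the share of a gene's transcripts at that site which carry the alternative stretch, be it an exon, an exon's extra bases or an intron. Each event is listed with its own flanking exons, and the same exon can have different values in different events. Which reads were counted for each form is not stated in the sources used here. For a pair of mutually exclusive exons it is the percentage that hold the upstream exon of the pair, which was read from skipped-exon events at the same exons in Tnnt3, Dnm2 and Clasp1. Values are given below in the order in which the authors' tables list the libraries, as mean ± SD over 3 libraries, and a difference is 480/480 minus +/480 in percentage points of inclusion. Event coordinates are those of the tables, on mm10, and the annotation and sequences are from GENCODE M21 for mm10.

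The exons of the 6 called events are shown here because the results turn on them, together with the 39-base exon of Tnnt3 and the exons of Cacna1s and Dnm2, genes known from muscle disease. Most are short and add or remove whole codons. Capitals mark the alternative exon and lower case the 10 bases of the neighbouring exons that flank it in the spliced RNA, 5′ to 3′. In Tnnt2 the exons of 12 and 30 bases lie at chr1:135842015-135842026 and chr1:135843785-135843814, on the plus strand, and both are coding.
Tnnt2 12-base exon: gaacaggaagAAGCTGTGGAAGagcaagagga
Tnnt2 30-base exon: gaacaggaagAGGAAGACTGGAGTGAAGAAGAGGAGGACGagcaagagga

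In Tnnt3, also on the plus strand, an upstream exon of 15 bases at chr7:142504250-142504264, a downstream exon of 15 bases at chr7:142505516-142505530 and an exon of 39 bases at chr7:142507750-142507788 are all coding. The 15-base exons are printed without flanks and have the same base at 7 of 15 positions (46.7%).
Tnnt3 upstream 15-base exon: AAGTCCAGGAGGAAG
Tnnt3 downstream 15-base exon: AGGAAGTCCAAGAAG
Tnnt3 39-base exon: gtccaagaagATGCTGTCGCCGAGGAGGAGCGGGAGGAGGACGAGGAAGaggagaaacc

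The exon of Rilpl1 lies at chr5:124495899-124495922 on the minus strand, that of Slain2 at chr5:72965804-72965881 on the plus strand and that of Cacna1s at chr1:136104570-136104626 on the plus strand. All 3 are coding and their lengths of 24, 78 and 57 bases are whole numbers of codons.
Rilpl1 24-base exon: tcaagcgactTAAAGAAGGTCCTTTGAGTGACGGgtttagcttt
Slain2 78-base exon: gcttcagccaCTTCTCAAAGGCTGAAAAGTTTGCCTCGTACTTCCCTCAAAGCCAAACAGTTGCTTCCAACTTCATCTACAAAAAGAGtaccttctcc
Cacna1s 57-base exon: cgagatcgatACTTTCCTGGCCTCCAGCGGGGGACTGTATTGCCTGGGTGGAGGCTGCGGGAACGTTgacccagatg

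Dnm2 carries a pair of mutually exclusive coding exons of equal length, 139 bases each, at chr9:21478899-21479037 and chr9:21480407-21480545 on the plus strand. The exons have the same base at 95 of 139 positions (68.3%).
Dnm2 upstream 139-base exon: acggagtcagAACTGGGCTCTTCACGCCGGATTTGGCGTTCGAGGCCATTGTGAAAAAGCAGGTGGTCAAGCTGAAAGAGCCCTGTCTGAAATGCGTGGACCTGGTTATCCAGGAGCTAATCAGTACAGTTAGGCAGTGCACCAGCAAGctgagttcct
Dnm2 downstream 139-base exon: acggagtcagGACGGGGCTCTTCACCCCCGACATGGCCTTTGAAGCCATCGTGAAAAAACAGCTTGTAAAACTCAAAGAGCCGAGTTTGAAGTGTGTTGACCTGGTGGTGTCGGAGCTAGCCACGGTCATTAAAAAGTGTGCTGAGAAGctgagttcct

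By type, the shared events were 31 skipped exons, 10 pairs of mutually exclusive exons, 5 retained introns and 2 alternative 5′ splice sites. No alternative 3′ splice site was shared, although 6 were listed for 480/480 and 12 for +/480 myotubes. All 10 mutually exclusive pairs in the +/480 table were also among the 35 in the 480/480 table (28.6%). The 31 shared skipped exons were 16.8% of the 184 in the 480/480 table and 44.9% of the 69 in the +/480 table. These 31 events held 30 distinct exons, because the Tnnt2 30-base exon was in 2 of them. Counted by event, 21 of the 31 had exon lengths of whole codons and 23 were coding in M21. Exon lengths were 6 to 2703 bases with a median of 94.

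Every event had passed the authors' selection against the same wild-type libraries in both tables, with at least 5 reads on average, an FDR of 0.05 or less and a change of 10 percentage points or more. These shared controls and the selection fix much of the agreement in direction between the tables: 17 events were above wild type in both genotypes and 31 below it, with 0 in opposite directions. Closest to the limits were the Tnnt3 pair of 39- and 19-base exons, with a +/480 change of 10.4 points, and the Atg7 exon, with a +/480 FDR of 0.0497. Values of events outside the limits were not analysed here. The depth behind each value is unknown beyond the minimum of 5 reads.

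Troponin T exons, a Rilpl1 exon and a Slain2 exon showed the clearest differences between myotubes with 2 expanded alleles and those with 1. With limma fitted over all 305 distinct events of the 2 myotube tables and p-values adjusted by the Benjamini-Hochberg method over the 48 events, 6 events were called at an adjusted p of 0.05 or less (12.5%), 3 higher (6.25%) and 3 lower (6.25%) in 480/480 than in +/480 myotubes. They lay in 4 genes, Tnnt2 with 3 events and Tnnt3, Rilpl1 and Slain2 with 1 each. An unadjusted p under 0.05 was reached by 12 events. The 3 libraries of 480/480 lay wholly above or below the 3 of +/480 in 16 events (33.3%), 6 above (12.5%) and 10 below (20.8%). In each of those 16 events the exact two-sided permutation p was 0.10, the smallest that 3 against 3 libraries can give.

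Means of 480/480 myotubes were farther from wild type than those of +/480 myotubes in 38 of the 48 events (79.2%). Among skipped exons this held for 24 of 31, among mutually exclusive pairs for 9 of 10, among retained introns for 3 of 5 and among alternative 5′ splice sites for 2 of 2. The median size of the change from wild type was 26.4 points in 480/480 and 20.1 points in +/480 myotubes. The +/480 change was at the median 80.4% of the 480/480 change, with a range of 36.2% to 131%, 81.1% over skipped exons and 77.2% over mutually exclusive pairs. Since an event had to change by 10 points or more in +/480 to be listed, the selection also sets a floor under this share, and the 195 events of the 480/480 table that were not shared are outside it. In 11 of the 38 events the difference changed sign when 1 library was left out. In bulk RNA, a change within every cell and a change in the mixture of cells cannot be told apart.

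**Figure D1:**
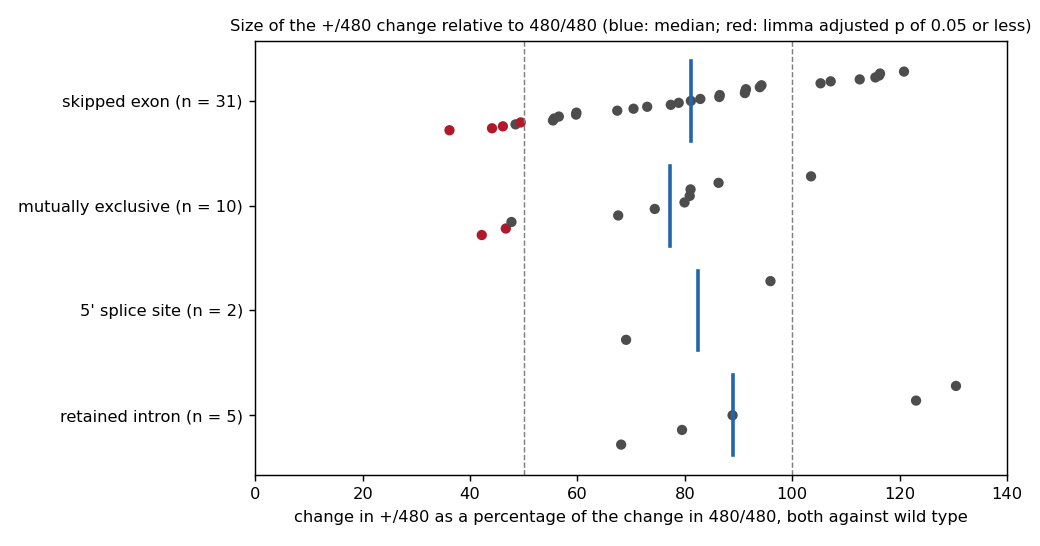
Change in +/480 myotubes as a percentage of the change in 480/480 myotubes, both against wild type, for each of the 48 shared events, by event type. Each point is 1 event computed from group means of 3 libraries, red points are the called events and the blue line is the median of the type. 38 events lie under 100%, 8 of them at 50% or less, where all 6 called events are.

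Tnnt2 encodes cardiac troponin T, the tropomyosin-binding subunit of the troponin complex on the thin filament, which immature skeletal muscle also makes. Its 30-base exon is used in the fetus and is a known target in myotonic dystrophy. Next to the 12-base exon as upstream neighbour, inclusion of the 30-base exon was 67.7, 55.1 and 72.1% in 480/480, 43.1, 45.9 and 43.6% in +/480 and 23.0, 25.7 and 23.0% in wild-type myotubes. The 3 groups did not overlap, and +/480 lay between the others. Group means were 65.0% ± 8.82 in 480/480 and 44.2% ± 1.49 in +/480 myotubes, a difference of 20.8 points (SE 4.47, 95% interval 10.5 to 31.0, limma adjusted p 0.0171).

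The same Tnnt2 exon was also measured next to an upstream exon of 11 bases that lies before the 12-base exon. There its inclusion was 46.2, 35.7 and 55.3% in 480/480, 24.2, 24.2 and 21.7% in +/480 and 10.9, 10.3 and 10.9% in wild-type myotubes. Levels were lower in this context than in the other in all 9 libraries, and the order of the groups was the same. The difference between 480/480 and +/480 was 22.4 points (SE 4.75, 95% interval 11.5 to 33.3, limma adjusted p 0.0171), and the +/480 change from wild type was 36.2% of the 480/480 change, the lowest share of the 48 events.

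As a mutually exclusive pair, the 12-base Tnnt2 exon was chosen over the 30-base exon in 39.8, 49.1 and 34.7% of transcripts in 480/480, 64.7, 63.3 and 62.8% in +/480 and 81.8, 79.0 and 79.0% in wild-type myotubes. All 480/480 libraries were below all +/480 libraries, which in turn were below all wild-type libraries. The difference was -22.4 points (SE 3.99, 95% interval -31.5 to -13.3, limma adjusted p 0.0171). These 3 Tnnt2 events share exons and so share reads, and they are not independent of each other. Without the first-listed +/480 library their adjusted p was 0.0594, 0.0594 and 0.0528, and without the third-listed +/480 library that of both skipped-exon events was 0.0581.

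Tnnt3 encodes fast skeletal muscle troponin T, whose alternative exons near the start of the protein change with development. Its 7 shared events all had the larger change in 480/480 myotubes, and 5 had no overlap between 480/480 and +/480 libraries. The upstream 15-base exon was chosen over the downstream 15-base exon in 52.7, 51.1 and 51.8% of transcripts in 480/480, 37.4, 41.4 and 32.2% in +/480 and 24.1, 25.8 and 22.1% in wild-type myotubes. The 480/480 values lay within 1.6 points of each other and above every +/480 value. Means were 51.9% ± 0.802 in 480/480 and 37.0% ± 4.61 in +/480 myotubes, a difference of 14.9 points (SE 3.29, 95% interval 7.33 to 22.4, limma adjusted p 0.0171). Without the first-listed +/480 library the adjusted p was 0.0594, and without the third-listed it was 0.0581.

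The 39-base Tnnt3 exon, a fetal exon, was included in 97.7, 97.5 and 97.7% of transcripts in 480/480, 91.7, 92.4 and 91.3% in +/480 and 68.1, 75 and 72.4% in wild-type myotubes. In 480/480 it was close to full inclusion and above every +/480 value, with a difference of 5.83 points that the test did not call (SE 2.96, 95% interval -0.943 to 12.6, limma adjusted p 0.277). On the logit scale, which widens differences near 100%, the adjusted p of this exon was 0.0026. This skipped-exon event has the downstream 15-base exon as its upstream flank, so its inclusion form as listed holds both exons. Choice of the downstream 15-base exon over the 39-base exon, listed with 3 different upstream neighbours, changed in the opposite direction. With the first neighbour, inclusion of the 15-base exon was 17.2, 17.2 and 18.1% in 480/480, 25.3, 24.2 and 24.4% in +/480 and 49.1, 43.4 and 43.6% in wild-type myotubes, a difference of -7.13 points (SE 2.92, 95% interval -13.8 to -0.444, limma adjusted p 0.172). Without wild type in the fit, the limma adjusted p was 0.0276 both for this pair and for the skipped 39-base exon.

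The other Tnnt3 events had smaller differences. With the second upstream neighbour, the 15-base exon was chosen in 13.2% ± 1.30 of transcripts in 480/480 and 15.9% ± 1.68 in +/480 myotubes, and the libraries overlapped. With the third the values were 2.43% ± 0.603 in 480/480 and 5.77% ± 0.751 in +/480 myotubes, without overlap. An 18-base exon was chosen over the downstream 15-base exon in 98.1% ± 0.808 in 480/480 and 94.5% ± 1.36 in +/480 myotubes, also without overlap. The 39-base exon was chosen over the 19-base exon in 40.4% ± 4.39 in 480/480 and 37.8% ± 3.35 in +/480 myotubes, with overlap. That last event leaves out forms with both exons, although the 19-base exon is the downstream flank of the other Tnnt3 events. Its values therefore do not give the share of the 39-base exon among all transcripts. None of these 4 was called on the percent scale, with limma adjusted p of 0.646 to 0.794. On the logit scale the event with the third neighbour (adjusted p 0.0285) and that of the 18-base exon (adjusted p 0.0400) were called. The Tnnt3 events share exons with each other as those of Tnnt2 do.

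**Figure D2:**
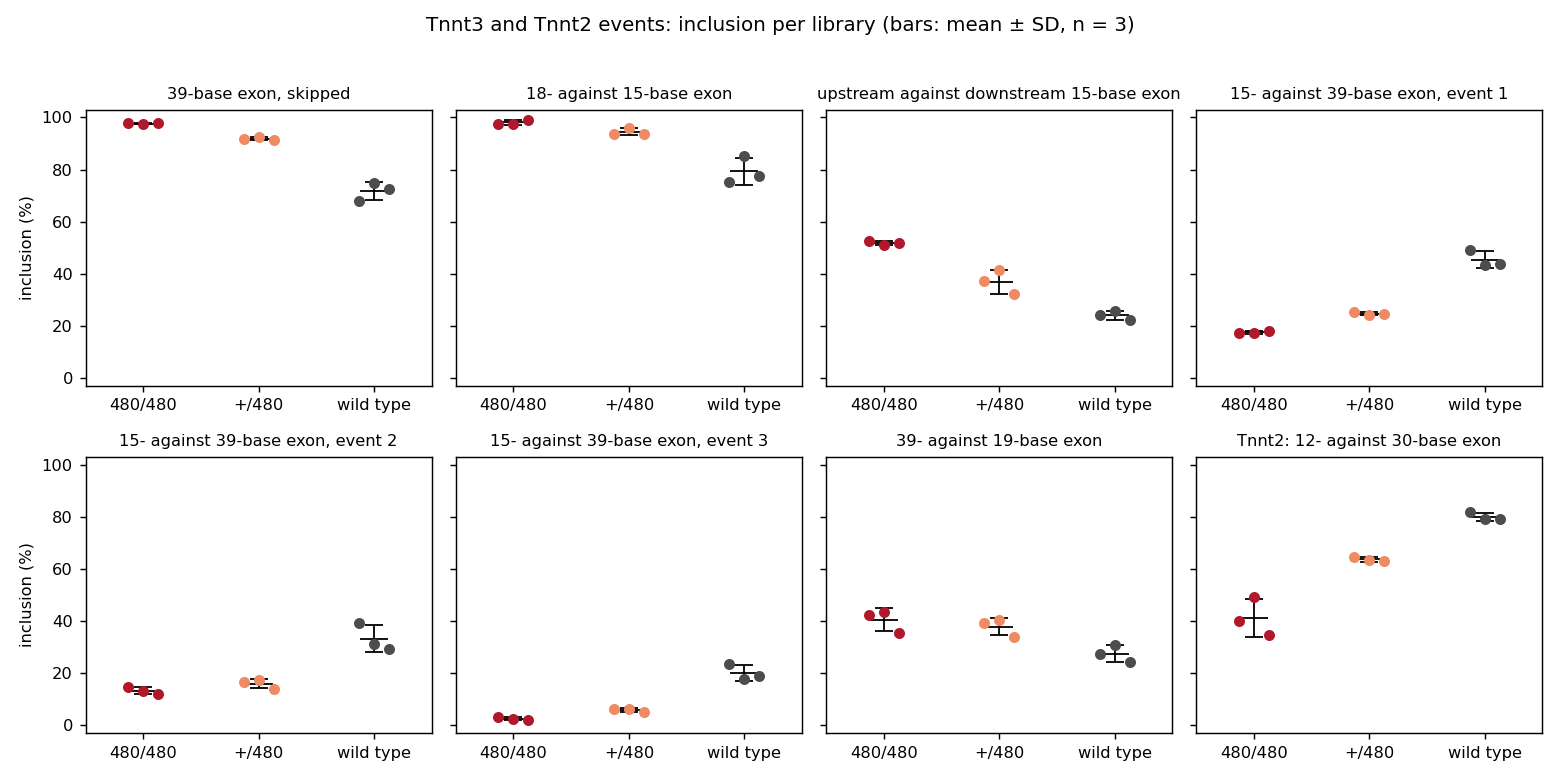
Inclusion in percent in each library for the 7 Tnnt3 events and the Tnnt2 mutually exclusive pair, in 480/480, +/480 and wild-type myotubes. Points are libraries and bars are the mean ± SD of 3. In each panel the +/480 mean lies between those of 480/480 and wild type.

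Rilpl1 encodes a relative of the Rab-interacting lysosomal protein, which acts in traffic of proteins to the primary cilium. Its 24-base exon was included in 28.4, 26.4 and 32.8% of transcripts in 480/480, 48.8, 52.0 and 67.8% in +/480 and 84.4, 78.3 and 75.2% in wild-type myotubes. No library of one group reached into another, and the third-listed +/480 library stood nearest to wild type. Inclusion averaged 29.2% ± 3.27 in 480/480 and 56.2% ± 10.2 in +/480 myotubes, a difference of -27.0 points (SE 5.35, 95% interval -39.3 to -14.7, limma adjusted p 0.0171), the widest of the 48. The exon was called under every one of the 22 settings of the analysis that included it, the main one among them.

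Slain2 encodes a microtubule plus-end protein that promotes microtubule growth. Inclusion of its 78-base exon was 44.0, 56.4 and 51.7% in 480/480, 62.7, 66.5 and 65.9% in +/480 and 77.4, 74.8 and 76.8% in wild-type myotubes. Every 480/480 library was below every +/480 library, by 6.3 points or more. The difference was -14.3 points (SE 3.74, 95% interval -22.9 to -5.76, limma adjusted p 0.0375). Without any 1 of the 3 +/480 libraries, the third-listed 480/480 library or any 1 of the 3 wild-type libraries, the adjusted p was above 0.05, at 0.0503 to 0.108. It was also above 0.05 on the arcsine and logit scales, without wild type in the fit, with a trend in the prior spread and with 1 event per gene, at 0.0523 to 0.0957.

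Next in the order were 3 events with an adjusted p of 0.0732 and no overlap of libraries. Cacna1s encodes the voltage-sensing subunit of the skeletal muscle L-type calcium channel, and its 57-base exon is a known target in the disease. Its inclusion was 19.1, 15.4 and 13.8% in 480/480, 28.8, 27.4 and 25.6% in +/480 and 43.6, 35.8 and 33.9% in wild-type myotubes. The 3 groups lay one below the next, and the +/480 change was 48.5% of the 480/480 change. The difference was -11.2 points (SE 3.55, 95% interval -19.3 to -3.03), and without the first-listed wild-type library the limma adjusted p was 0.0499, while without any other single library it was 0.0579 to 0.201.

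Pdlim3 encodes a PDZ and LIM domain protein that binds α-actinin at the Z-disc. Its 188-base exon was chosen over a 68-base exon in 64.1, 46.1 and 50.7% of transcripts in 480/480, 41.1, 36.4 and 39% in +/480 and 22.7, 26.1 and 27.2% in wild-type myotubes. The lowest 480/480 library was 5 points above the highest +/480 library. The difference was 14.8 points (SE 4.75, 95% interval 3.91 to 25.7), and without the second-listed 480/480 library it was 18.6 points with a limma adjusted p of 0.0327. Without the first-listed 480/480 library it was 9.57 points with an adjusted p of 0.0881, and without any other single library the adjusted p was 0.104 to 0.171.

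Lama2 encodes the α2 chain of laminin in the muscle basement membrane, and its event is a coding exon of 6 bases at chr10:27053028-27053033 on the minus strand. The exon was included in 73.5, 61.8 and 57.6% of transcripts in 480/480, 81.1, 81.0 and 75.1% in +/480 and 100, 100 and 92.8% in wild-type myotubes. The groups did not overlap, although the first-listed 480/480 library was only 1.6 points below the lowest +/480 library. The difference was -14.8 points (SE 4.73, 95% interval -25.6 to -3.94), and without the first-listed 480/480 library it was -19.4 points with a limma adjusted p of 0.0438. Without any other single library the adjusted p was 0.0907 to 0.201, and on the arcsine and logit scales it was 0.246 and 0.511.

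**Figure D3:**
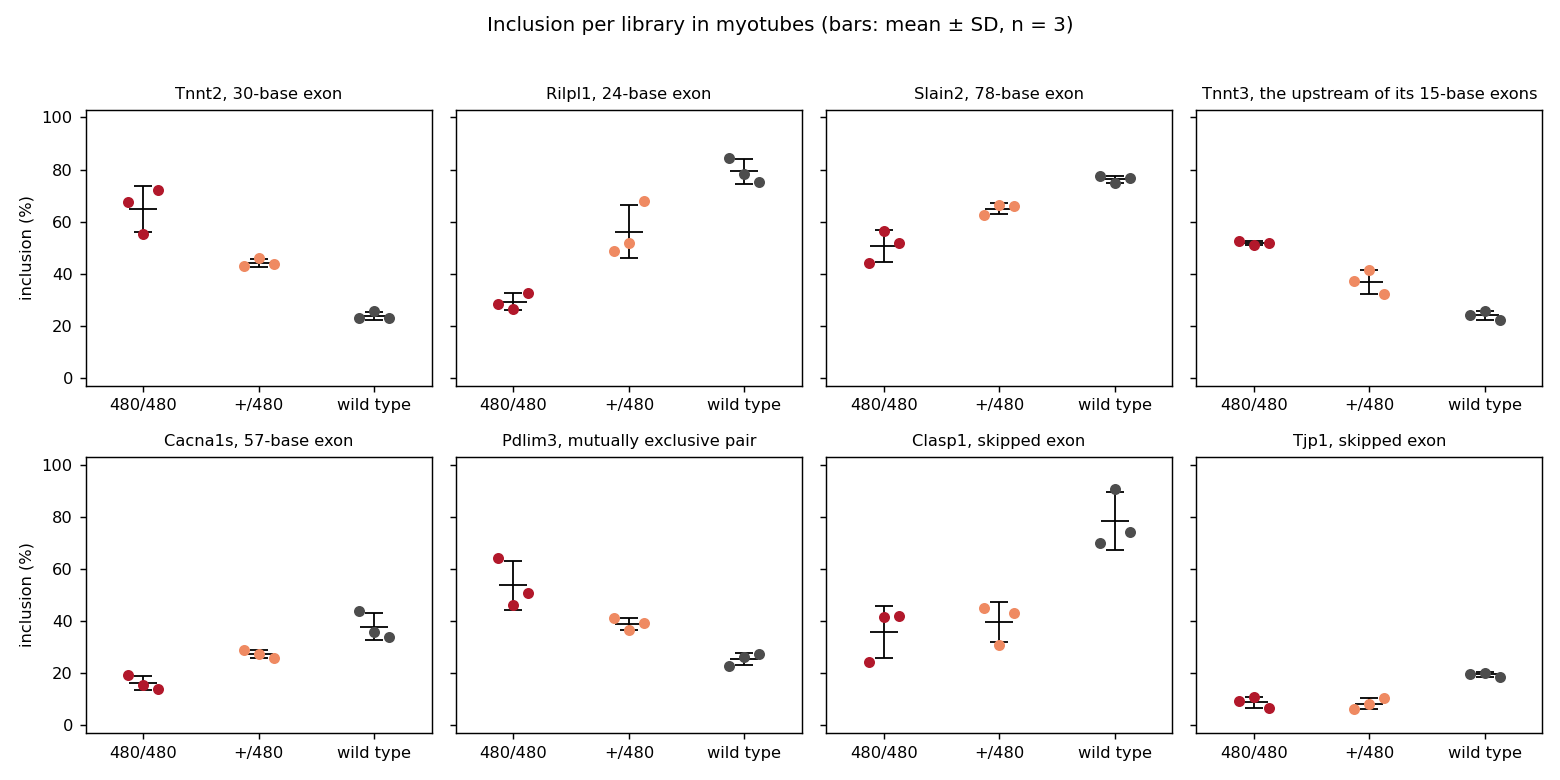
Inclusion in percent in each library for 8 shared events in Tnnt2, Rilpl1, Slain2, Tnnt3, Cacna1s, Pdlim3, Clasp1 and Tjp1, in 480/480, +/480 and wild-type myotubes. Points are libraries and bars are the mean ± SD of 3. Rilpl1 shows the widest gap, with 26.4 to 32.8% in 480/480 and 48.8 to 67.8% in +/480 myotubes.

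Dnm2 encodes dynamin 2, a GTPase that cuts vesicles from membranes and whose mutations cause a centronuclear myopathy. Skipped-exon values for the upstream 139-base exon were 18.7, 28.8 and 24.5% in 480/480, 35.2, 29.3 and 33.6% in +/480 and 56.9, 58.1 and 45.3% in wild-type myotubes, and its 480/480 values lay below its +/480 values by at least 0.5 points. The downstream 139-base exon had 55.8, 40.6 and 48.9% in 480/480, 39.2, 43.8 and 37.6% in +/480 and 24.8, 20.3 and 24.4% in wild-type myotubes, with 1 overlapping library. Each of these skipped-exon events has the other 139-base exon as a flank. All 5 M21 transcripts with the upstream exon, and all 4 with the downstream exon, join it directly to the exons outside the pair. The annotation thus holds no form with both, and which forms these skipped-exon values count is not known. As a mutually exclusive pair the upstream exon was chosen in 35.8% ± 6.86 of transcripts in 480/480 and 45.2% ± 3.95 in +/480 myotubes, with overlap. Each of the 3 events was farther from wild type in 480/480, and none was called, with differences of -8.70, 8.23 and -9.40 points and limma adjusted p of 0.277, 0.277 and 0.235.

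Rps24, a protein of the small ribosomal subunit, has an 18-base exon at the end of its reading frame. Inclusion was 29.2, 28.1 and 20.5% in 480/480, 34.1, 34.7 and 41.6% in +/480 and 51.4, 45.8 and 55.6% in wild-type myotubes, without overlap, and the difference was -10.9 points (95% interval -20.3 to -1.41, limma adjusted p 0.140). Fbxo31, a substrate receptor of a ubiquitin ligase, included its 87-base exon in 2.70, 4.30 and 7.40% of transcripts in 480/480, 14.7, 12 and 13.1% in +/480 and 32.2, 24.7 and 20.7% in wild-type myotubes. These groups did not overlap either, and the difference was -8.47 points (95% interval -16.9 to -0.0666, limma adjusted p 0.194). On the logit scale, which widens differences near 0%, both the Fbxo31 exon and the Cacna1s exon were among the 10 events called.

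Wide differences between means also occurred in events whose libraries scattered. Pld1, a phospholipase that makes phosphatidic acid, included its 114-base exon in 44.2, 51.4 and 44.2% of transcripts in 480/480 and in 100, 44.2 and 54.3% in +/480 myotubes. Its difference of -19.6 points was not called (95% interval -48.8 to 9.67), and 1 +/480 library was at 100%. Atg7, an enzyme of autophagy, had 54.0, 28.1 and 20.7% in 480/480 and 80.4, 12.8 and 54.0% in +/480 myotubes for an exon of the 5′ untranslated region, and its interval ran from -54.5 to 24.9 points. Meg3, an imprinted long non-coding RNA, had 24.2, 39.3 and 29.2% in 480/480 and 28.8, 0 and 30.7% in +/480 myotubes, with an interval of -9.63 to 31.8 points.

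Cytoskeletal and polarity genes other than Slain2 showed little separation between the genotypes. Ablim1, an actin-binding LIM protein, included an 84-base exon in 5.60, 11.8 and 9.40% of transcripts in 480/480, 16.8, 9.20 and 15.8% in +/480 and 35.4, 32.9 and 38% in wild-type myotubes, with overlap between the first 2 groups. Clasp1, which stabilises microtubule ends, included a 108-base exon in 24.4, 41.3 and 42.0% of transcripts in 480/480, 45, 30.7 and 43.2% in +/480 and 69.9, 90.8 and 74.2% in wild-type myotubes. Both expanded genotypes were far below wild type there and overlapped each other, with a difference of -3.73 points (95% interval -20.3 to 12.8). The Clasp1 pair of 108- and 63-base exons differed by 1.13 points (95% interval -18.7 to 20.9). In the skipped-exon event of Clasp1 the 63-base exon is a flank.

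Tjp1 encodes the tight-junction scaffold ZO-1, and its 240-base coding exon at chr7:65314093-65314332 had one of the tightest measurements. Inclusion was 9.20, 10.6 and 6.40% in 480/480, 6.2, 8.0 and 10.3% in +/480 and 19.8, 20.1 and 18.4% in wild-type myotubes. Both genotypes overlapped and lay below wild type, and the difference of 0.567 points had a 95% interval of -6.03 to 7.16. Scrib, a polarity scaffold, included a 63-base exon in 94.6, 91.4 and 83.9% of transcripts in 480/480, 93.3, 96.2 and 89.3% in +/480 and 73.1, 71.4 and 68% in wild-type myotubes, with a difference of -2.97 points (95% interval -11.7 to 5.79). The sign of both differences turned when 1 library was left out, with -0.417 points for Tjp1 without the first-listed +/480 library and 0.067 points for Scrib without the third-listed 480/480 library.

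The larger mean change was in +/480 myotubes in 10 events, none of them called and none without overlap. In 9 of the 10, all but Zfp653, the difference changed sign when 1 library was left out. Besides Tjp1, Scrib and the Clasp1 pair they were the skipped exons of Sept4, a septin GTPase, Sema6c, a transmembrane semaphorin, Pdp1, a phosphatase that activates pyruvate dehydrogenase, Aak1, a kinase of clathrin adaptors, and Cdpf1, and the retained introns of E4f1 and Zfp653, which encode zinc-finger transcription factors. Aak1 had 78.4, 80.1 and 82.0% in 480/480 and 63.6, 100 and 64.5% in +/480 myotubes, so that 1 +/480 library equalled the wild-type value of 100%. Without that library the Aak1 difference was 16.1 points with a limma adjusted p of 0.0223, against 4.13 points with it. Pdp1 had 89.1, 100 and 100% in 480/480 and 100, 93.5 and 100% in +/480 myotubes. The 95% intervals of the difference were -31.5 to 41.9 points for Sept4, -28.2 to 38.8 points for Sema6c and -27.5 to 18.9 points for Cdpf1. With all libraries, none of the 10 reached an unadjusted limma p under 0.05 or a call on the logit scale (0 each).

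The rest of the skipped exons overlapped between the genotypes. Dst, a linker of cytoskeletal filaments, and Prdm2, a zinc-finger protein, were included at 100% in all 480/480 libraries and at 97.5% ± 4.39 and 95.5% ± 7.79 in +/480 myotubes, so a further change in 480/480 could not be measured. Sympk, a scaffold of mRNA 3′ end processing, included a 126-base exon of the 5′ untranslated region in 13.8, 11.6 and 11.1% of transcripts in 480/480, 20.3, 20.6 and 11.6% in +/480 and 42.7, 41.9 and 27.6% in wild-type myotubes. Both exons of Sdr39u1, an enzyme of the short-chain dehydrogenase family, and that of Gripap1, an endosomal protein, differed by 0.800 to 1.57 points in size, and that of Nav3, a microtubule-binding protein, by 3.47 points. Fgfr3, a fibroblast growth factor receptor, included its 151-base exon in 100, 68.9 and 79.9% of transcripts in 480/480, 100, 62.4 and 66.6% in +/480 and 45.3, 26 and 30.7% in wild-type myotubes.

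Retained introns and alternative 5′ splice sites gave no call by limma, on the logit scale or at an unadjusted p under 0.05, and no separated event. The Fgfr3 intron event spans the 151-base exon, has the same flanking exons and had 86.6% ± 14.5 in 480/480 and 82.2% ± 15.5 in +/480 myotubes. The skipped-exon and intron events of Fgfr3 are therefore not independent, and exon inclusion was not separated there from intron retention. Pan2, a subunit of a poly(A) nuclease, had 21.4, 23.8 and 54.2% intron retention in 480/480 and 64.5, 35.3 and 52.2% in +/480 myotubes, with an interval of the difference of -46.8 to 11.7 points. E4f1 and Zfp653 had wider retention changes from wild type in +/480, and Nr1h2, the nuclear receptor LXRβ, had 69.8% ± 26.5 in 480/480 and 75.1% ± 22.2 in +/480 myotubes. At an alternative 5′ splice site, use of the longer exon of Strada, a pseudokinase that activates LKB1, ranged from 11.2 to 89.3% in 480/480 and from 55.8 to 84.1% in +/480 myotubes.

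**Figure D4:**
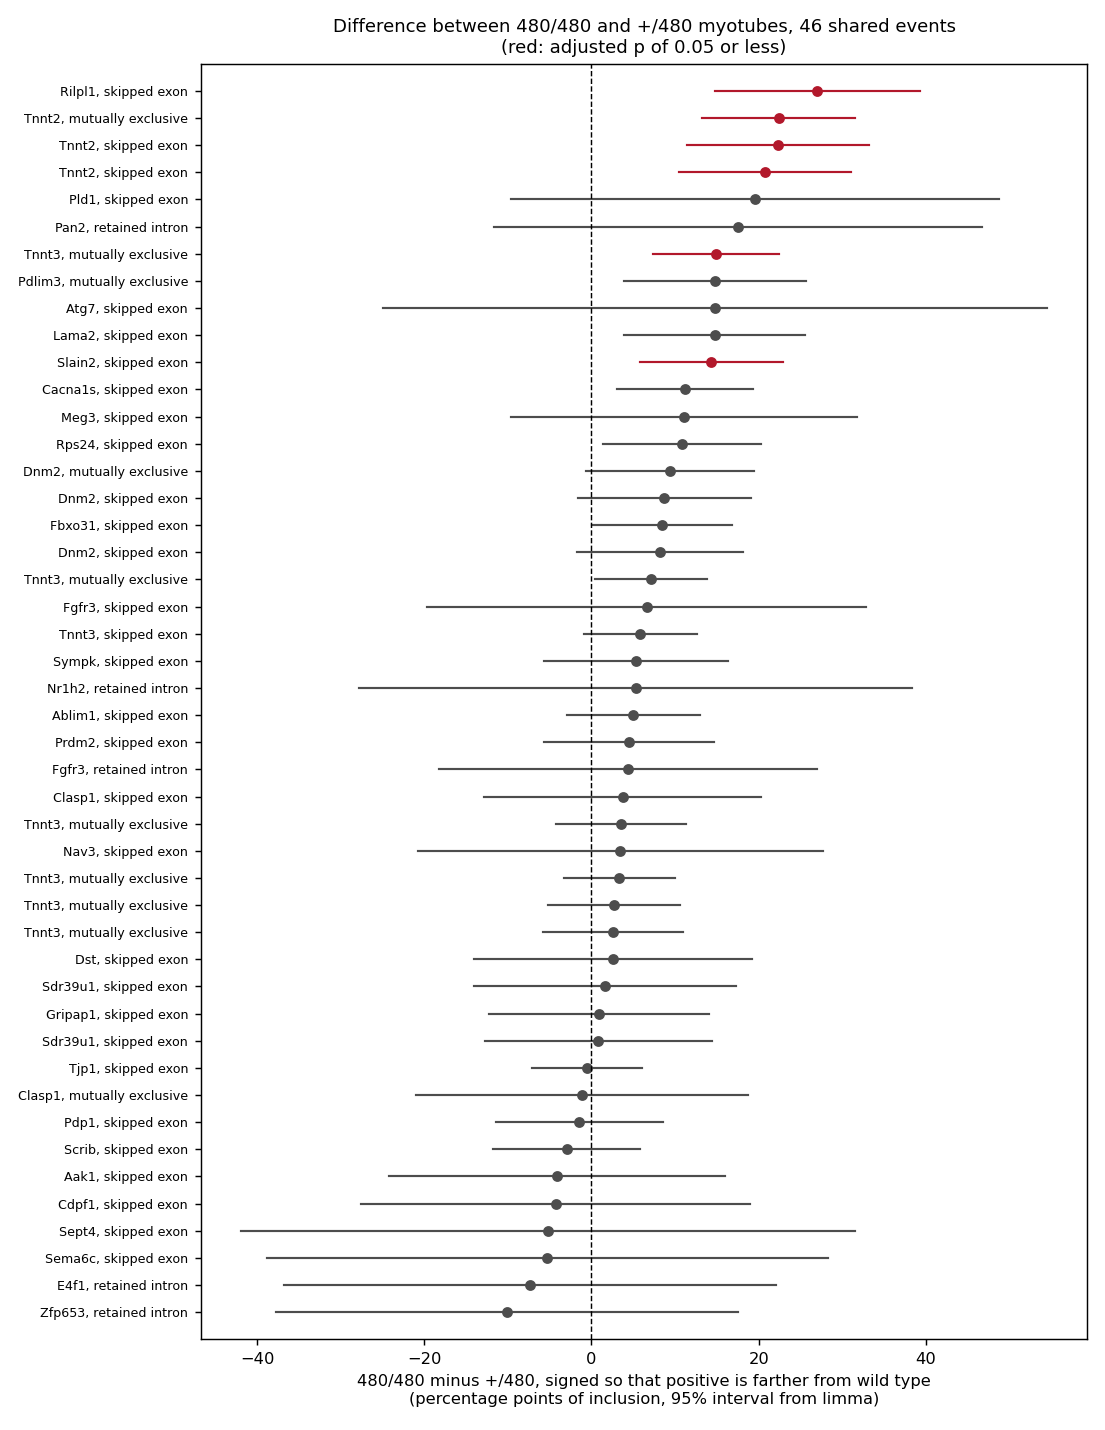
Difference in inclusion between 480/480 and +/480 in percentage points for the 46 shared events that are skipped exons, mutually exclusive pairs or retained introns, with the sign turned so that events farther from wild type in 480/480 are positive. Points are differences of group means, bars are 95% intervals of the limma fit and red marks the 6 called events, in Rilpl1, Tnnt2, Tnnt3 and Slain2.

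Placed between wild type and 480/480, 8 events in 6 genes had a +/480 change of 50% or less of the 480/480 change. These were the 3 Tnnt2 events, the 15-base pair of Tnnt3, and the Rilpl1, Slain2, Cacna1s and Pdlim3 events. All 8 were without overlap and 6 were called, which the ordering largely fixes, because the share and the call rest on the same difference. A further 30 events lay between 50% and 100%, of which 8 were without overlap and 0 were called by limma. Of these 30, 4 had an unadjusted p under 0.05 and 4 were called on the logit scale.

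Genes of the list of myotonic dystrophy muscle targets held 20 of the 48 events, in 9 of the list's 69 genes. Of these 20, 19 were farther from wild type in 480/480, 13 were without overlap and 6 were called, 3 higher and 3 lower. Over all 48 events, 38 were farther (79.2%), 16 without overlap (33.3%) and 6 called (12.5%). The median size difference was 8.47 points in the list beside 5.15 points over all 48 events. Tnnt2 and Tnnt3 held 3 and 7 of the 20 events, with 3 and 5 without overlap and 3 and 1 called. The other 28 events, in 26 genes, had 19 farther in 480/480, 3 without overlap and 0 called by limma, while 3 had an unadjusted p under 0.05 and 1 was called on the logit scale. Sarcomere and Z-disc genes held 11 events in 3 genes, with 11 farther in 480/480, 9 without overlap and 4 called. Cytoskeleton, polarity and adhesion genes held 8 events in 7 genes, with 4 farther in 480/480 and 1 called, that of Slain2. Trafficking genes held 7 events in 5 genes with 1 called, that of Rilpl1. Signalling and metabolism genes held 6 events in 4 genes with 0 called by limma, 0 at an unadjusted p under 0.05 and 0 on the logit scale, and RNA-binding protein genes held 0. These counts describe lists chosen with results of these data known, and events of 1 gene share reads.

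Spread within groups went with the separation, which is largely built in, because both are computed from the same library values. In 28 events the SD was under 10 points in all 3 groups, and of these 25 were farther from wild type in 480/480 and 15 were without overlap. In the other 20 events 13 were farther and 1 was without overlap. At least 1 library was at 0% or 100% in 22 events, of which 1 was without overlap, against 15 of the 26 events with no such value. The part of read depth in this spread was not tested, because the values used carry no read counts.

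Over the 48 events the median change away from wild type was 29.5, 23.4 and 25.9 points in the 480/480 libraries and 18.9, 19.1 and 19.6 points in the +/480 libraries. All 3 medians of 480/480 were above those of +/480. The second-listed 480/480 library had the smallest change of the 3 in 23 events, the first in 10 and the third in 12, and it was also nearest to +/480 in the Tnnt2 events. No gene of the 48 events had an event among the 196 listed for tibialis anterior and choroid plexus. Those listings compare 480/480 with wild type alone, and absence from them does not show that an exon was unchanged in these tissues.

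**Figure D5:**
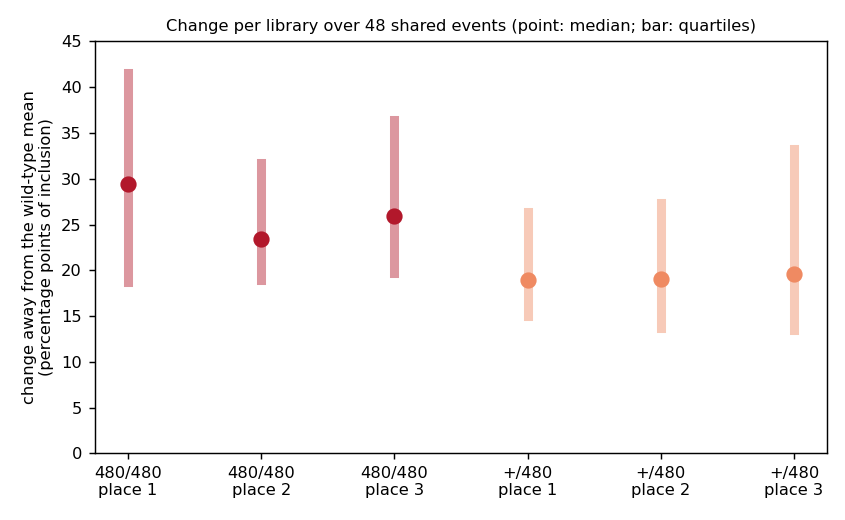
Change in inclusion away from the wild-type mean, in percentage points, in each 480/480 and +/480 library, in the order of the authors' lists. Points are medians over the 48 shared events and bars run from the lower to the upper quartile. The 480/480 medians are 23.4 to 29.5 points and the +/480 medians 18.9 to 19.6 points.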

How the data were processed

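RNA-seq of 9 FVB myotube libraries was used, 3 each of Dmpk 480/480, Dmpk +/480 and Dmpk+/+. The submitters' processing notes name FastQC for read quality, STAR for alignment and the mm10 build, without versions. No source used here names the splicing caller. The authors deposited inclusion as a fraction from 0 to 1 to 3 decimal places, 1 per library, with a p-value and an FDR for each event, and a difference that is wild type minus expansion. Per the file headers, events averaged at least 5 reads, with an FDR of at most 0.05 and a change of at least 10 percentage points. No counts were used, so no counting interval is given.

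Fractions were turned into percentages, and recomputed changes lay within 0.05 points of the deposited differences. Wild-type values were the same in both tables for all 48 events. limma 3.58.1 (R 4.3.3) was fitted to all 305 distinct myotube events with values missing where an event was in 1 table, which gave a prior SD of 6.05 points on 2.29 degrees of freedom, and the Benjamini-Hochberg method was applied over the 48 events with values in both genotypes. The fit was tested on simulated data with differences wider than any of the 48 and no bounds on inclusion. That test does not show how well differences of the observed size are found. Python 3.11.15 with pandas 2.3.3, NumPy 2.4.6, SciPy 1.17.1 and matplotlib 3.10.9 was used. Replicates are libraries from separate mice per the labels, and the lists carry no replicate number, so libraries are called by their place. All 376 gene IDs matched a symbol, and 1 gene among the 35 had its symbol replaced.

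The events, gene lists and tests were chosen with earlier results of these data known. Named were all called events, the 15 skipped exons with the widest and the 5 with the narrowest difference, those with the larger change in +/480, all events of other types and those in listed genes. For 1 event that the rule names, which stays in all counts, values are not reported here. Nav3, Sympk, Dst and Prdm2 were named besides. Alternatives were other scales (arcsine, logit), other fits, stricter limits, a single event per gene, looser matching of exons and the omission of each library in turn.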

Additional observations from a re-analysis of the deposited data

How the results depend on the processing

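The 6 calls between 480/480 and +/480 myotubes became 10 on the logit scale. A change of 20 points or more in both tables left 22 events and 2 of the 6 calls to test, and both stayed called. Taking 1 event per gene left 35 events and 3 of the 6 calls to test, and 2 stayed called. Without 1 library the calls ranged from 1 to 7. They were fewest without the first-listed +/480 library (1) and without the third-listed (2). The fit without wild type called 9, and other fits and scales called 6. Events farther from wild type in 480/480, 38 in all, numbered 20 with an authors' FDR of 0.01 or less, 15 with a change of 20 points or more, 25 with 1 event per gene and 24 among skipped exons only, since each of these leaves fewer events. Events without overlap, 16 in all, numbered 4, 9 and 10 with 20 points or more, 1 event per gene and skipped exons only. With matching by the alternative exon whatever its flanks, 47 events were compared and 6 were called, 4 of them with unchanged values. The other 2, in Cdc42bpa (-72.5 points) and Ttn (-48.5 points), were named after their values were seen and set events with different flanking exons against each other, as did the Tnnt2 30-base exon, which was not called (1.53 points, adjusted p 0.867). No difference that was called changed sign. Among all 48 differences, 20 changed sign when 1 library was left out, the widest of them 14.8 points. No paired analysis was possible because the values in the tables are not tied to replicate numbers. With 3 libraries a group, an event as variable as that of Pld1 could not be told from no difference, and read depth per event is unknown.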
